A study of Mus musculus with 60 samples.

Results

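The expression of 10 genes that brake the cell cycle or belong to the p53 loop was followed as mouse hepatocytes were put into culture with IL6, expanded over passages and matured again, and as the liver regrew after surgery. The 10 genes were picked by name and by role, with earlier results of these data known, out of 19456 gene symbols listed in the expression tables. They comprised the CIP/KIP inhibitors Cdkn1a (p21), Cdkn1b (p27) and Cdkn1c (p57), the INK4 inhibitors Cdkn2a (p16Ink4a and p19Arf), Cdkn2b (p15), Cdkn2c (p18) and Cdkn2d (p19Ink4d), the tumour suppressor Trp53 (p53), its ubiquitin ligase Mdm2, and Ccng1 (cyclin G1). All 10 were listed in both tables used here.

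A cell enters S phase once cyclin-dependent kinases (CDKs) have phosphorylated the retinoblastoma protein. INK4 proteins bind the D-cyclin kinases and keep them inactive, whereas CIP/KIP proteins bind complexes of cyclin and kinase, mainly those with CDK2. The transcription factor p53 switches on Cdkn1a, Mdm2 and Ccng1 after stress, Mdm2 marks p53 for degradation, and p19Arf, read from the same locus as p16Ink4a in another frame, holds Mdm2 back. Rodent cells kept in culture often raise the Cdkn2a and Cdkn2b locus and p53 activity until they stop dividing, and in liver p21 restrains hepatocyte division after tissue loss.

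The cultured cells were described in the labels as wild-type (WT) C57BL/6, and the study took hepatocytes from mice of 8 to 10 weeks. Groups were freshly isolated hepatocytes, cells grown with 30 ng/ml IL6 beside 20 ng/ml EGF and 20 ng/ml HGF (IL6-iHPCs, proliferating progenitor-like cells) to day 3 (D3) and day 14 (D14) at passage 0 (P0), passaged IL6-iHPCs (mouse-1 at P10 and at P35, mouse-2 at P10, and at P20 the line clone-1, which grew from a single cell), and cells matured for 7 days from each of these 4 passaged cultures (IL6-iMHs), which stand for 3 lines. The study's maturation medium listed no IL6, EGF or HGF. It held oncostatin M, and more dexamethasone than the growth medium, which also held some. Livers were normal or taken 6 h, 24 h, 3, 7 or 14 days after partial hepatectomy (PHX), for which the study used C57BL/6J mice of 8 to 10 weeks. No sham-operated group was listed, so that surgery and tissue loss cannot be told apart. Every group had 3 libraries, 33 from cells in 11 groups and 18 from liver in 6 groups. For the cells the study described such triplicates as technical repeats, so that p-values there cover technical spread only; for liver it was not stated whether 3 animals were used. In the study clone-1 came from a mouse with hepatocytes marked by Albumin-Cre and a tdTomato reporter, which the labels did not list.

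Values were FPKM (fragments per kilobase of transcript, scaled to the mapped fragments of a library), a level per length that can be set side by side between genes. Reads on genes, recovered from the steps between values, were 49.3 M to 88.9 M (M, mega) per cell library and 52.1 M to 79.3 M per liver library. Summed FPKM of 10 hepatocyte markers was 76815 to 82571 in hepatocytes, 1012 to 1175 at D3, 1956 to 10203 in passaged IL6-iHPCs and 60910 to 83078 in IL6-iMHs. Reads on 4 Y-linked genes were 994 to 1550 in hepatocytes, 13066 to 18444 at D3, 9185 to 10803 at D14 and 6575 to 9095 in IL6-iHPCs of clone-1. They were 0 to 2 in all libraries of mouse-1 and mouse-2 and 0 in the IL6-iMHs of clone-1. Passage and animal cannot be told apart in comparisons with D14, and the libraries labelled clone-1 did not match each other in these reads before and after maturation. Results from clone-1 are given for the libraries so labelled.

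The Cdkn2a and Cdkn2b locus is shown first because both of its genes ran from 0 reads in some libraries to 6.92 FPKM (Cdkn2a) and 76.6 FPKM (Cdkn2b) in others. On chromosome 4 of GRCm38 (mm10, RefSeq annotation) Cdkn2a spans 89274473 to 89294619 and Cdkn2b 89306289 to 89311032, both on the minus strand. RefSeq gives Cdkn2a 2 starts that lie 12427 bases apart, the outer one for the Arf transcript and the inner one for the Ink4a transcript, and the gene-level values cannot separate these. The 250 bases before each start are printed from 5′ to 3′ with CG dinucleotides, the sites of DNA methylation, in capitals.
Cdkn2a, Arf start, chr4:89294620-89294869: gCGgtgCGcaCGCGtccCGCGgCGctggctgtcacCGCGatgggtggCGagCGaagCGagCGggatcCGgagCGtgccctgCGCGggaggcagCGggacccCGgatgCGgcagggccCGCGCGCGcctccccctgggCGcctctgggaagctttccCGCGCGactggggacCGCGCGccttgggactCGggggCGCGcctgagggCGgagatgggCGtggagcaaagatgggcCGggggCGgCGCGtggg
Cdkn2a, Ink4a start, chr4:89282193-89282442: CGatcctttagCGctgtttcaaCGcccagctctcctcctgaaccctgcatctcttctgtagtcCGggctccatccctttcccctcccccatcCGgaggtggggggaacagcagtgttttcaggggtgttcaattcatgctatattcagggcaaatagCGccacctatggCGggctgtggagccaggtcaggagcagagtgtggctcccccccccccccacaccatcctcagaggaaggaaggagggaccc
Cdkn2b, chr4:89311033-89311282: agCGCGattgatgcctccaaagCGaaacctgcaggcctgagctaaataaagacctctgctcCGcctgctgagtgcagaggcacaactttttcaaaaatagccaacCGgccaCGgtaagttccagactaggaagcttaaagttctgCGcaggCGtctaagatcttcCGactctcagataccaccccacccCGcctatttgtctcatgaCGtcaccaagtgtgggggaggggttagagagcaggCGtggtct
The Arf window held 40 CG dinucleotides, a number reached by 1.31% of 32851 such windows in the mouse genome, where the median was 6. The Ink4a window held 7 (reached by 46.3% of windows) and the Cdkn2b window 12 (33.5%). Windows were found for 9 of the 10 genes, 12 in all, with none for Cdkn1c. On either strand GGGCGG, the core of a GC box, occurred in 6 of the 12 windows against 32.7% of all windows, and CCAAT in 5 against 33.8%, while TATAAA occurred in 1 (12.4%), and the E2F letters TTTGGCGC (0.417%) and TTTCGCGC (0.256%) and the E box CACGTG (6.02%) in 0. No methylation or binding was measured, and these counts describe letters only.

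The first comparison asked what happened to the inhibitors when hepatocytes entered culture. Within 3 days of culture with IL6, p21, p53, Mdm2, cyclin G1, p27 and p15 rose, the last from a very low level, and Cdkn2a was at 0 to 6 reads per library. These cell groups included no culture without IL6, so that isolation, plating, the rest of the medium and IL6 cannot be told apart. Differences between groups are given on the log2(FPKM + 1) scale with standard error (SE), which understates the change of genes near or under 1 FPKM. A gene was called changed when limma gave an adjusted p (Benjamini-Hochberg, over all genes tested) under 0.05 and a difference of at least 2-fold. Of the 10 genes 6 rose and 0 fell from hepatocytes to D3, where 53.9% of all 12328 genes tested rose and 12.1% fell. The whole distribution moved: the median of all genes was 1.14 and that of the 10 genes 2.38. Of all calls 81.6% were rises, against 65.3% with upper-quartile scaling and 53.6% with quantile normalization.

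Cdkn1a, the main transcriptional output of p53, was at 4.31, 4.39 and 3.23 FPKM in the 3 hepatocyte libraries and at 237, 231 and 228 FPKM at D3. It rose 58.3-fold in mean FPKM, with a log2 difference of 5.56 ± 0.072 (SE, limma, adjusted p = 4.17e-32), 4.42 above the median gene. Mdm2 rose from 3.37, 3.75 and 3.12 to 89.4, 85.5 and 95.1 FPKM, a log2 difference of 4.37 ± 0.063 (adjusted p = 5.08e-31). Ccng1, which encodes a cyclin that recruits a phosphatase to Mdm2, rose from 7.13, 7.06 and 7.75 to 153, 149.9 and 155 FPKM (log2 difference 4.21 ± 0.090, adjusted p = 7.43e-27). Trp53 itself rose from 8.45, 10.004 and 7.27 to 103, 92.3 and 104 FPKM (3.40 ± 0.080, adjusted p = 7.55e-26). For each of these 4 genes the 3 libraries of each group lay close together and far from the other group.

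Cdkn1b, which binds cyclin E and CDK2, rose from 4.72, 4.93 and 5.43 to 36.5, 40.4 and 37.0 FPKM (2.69 ± 0.066, adjusted p = 2.17e-25). Cdkn2b rose from 0.127, 0.0741 and 0.178 to 4.07, 3.20 and 3.89 FPKM (2.06 ± 0.076, adjusted p = 3.75e-21), 29.4-fold in mean FPKM. Its difference was 4.10 with a pseudocount of 0.1, and the call was lost with quantile normalization (0.94). The remaining inhibitors had low values at both points. Cdkn2a had 4, 0 and 0 reads in hepatocytes and 2, 6 and 0 reads at D3 (0.03 ± 0.084, adjusted p = 0.71). Cdkn2c was at 1.58 to 1.97 and 2.12 to 2.54 FPKM, Cdkn2d at 2.11 to 2.77 and 2.57 to 3.69 FPKM, and Cdkn1c at 0.476 to 0.700 and 0.710 to 0.882 FPKM. These 3 genes had log2 differences of 0.23, 0.24 and 0.19, under the median gene, and with quantile normalization the differences turned to -1.33, -1.32 and -1.16. With upper-quartile scaling those of Cdkn2c and Cdkn2d were -0.40 and -0.44. Kupffer cell markers (9 genes) summed to 19.7 to 23.6 FPKM in hepatocytes and 0.0960 to 0.439 at D3, and red cell markers (7 genes) to 107 to 124 and 0.322 to 0.437 FPKM, with Hba-a1 and Clec4f among those at 0 in D3; their part in the differences was not tested.

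**Figure D1:**
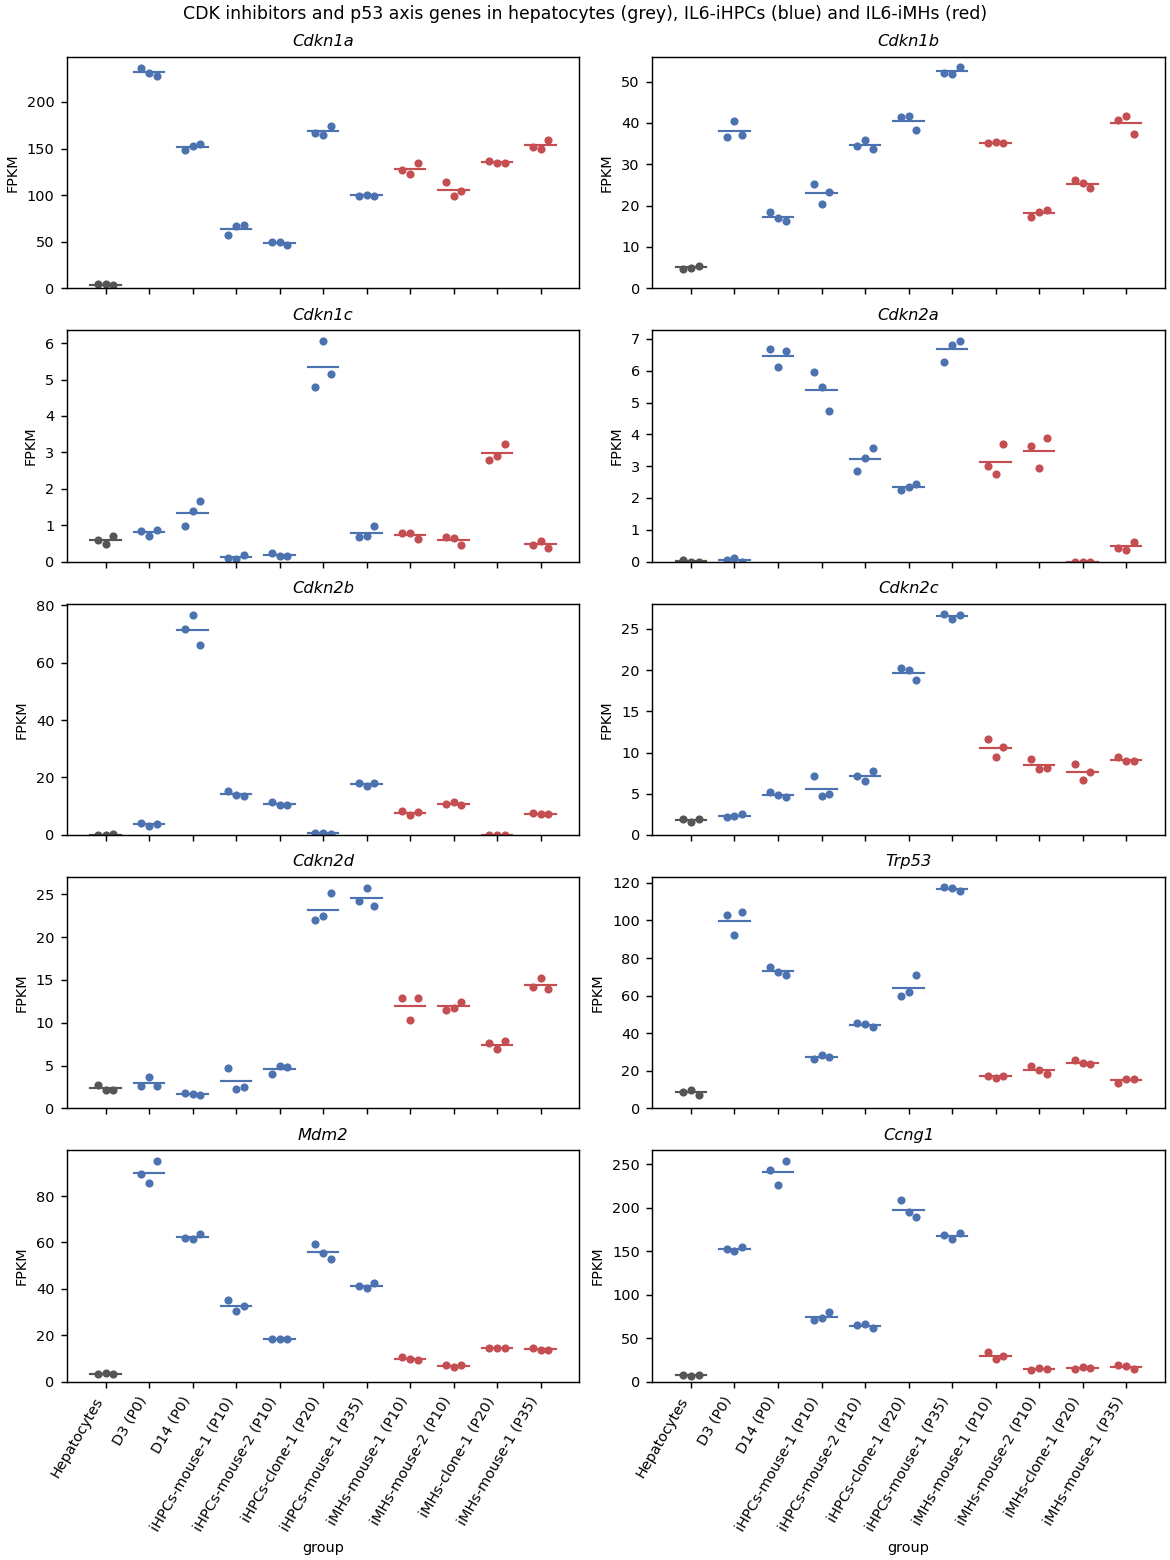
FPKM of the 10 genes (1 panel per gene, y axis) in the 11 cell groups (x axis), with 1 point per library and a line at the mean of 3 libraries. Cdkn1a stands at 3.23 to 4.39 in hepatocytes and 228 to 237 at D3, and Cdkn2b at 66.2 to 76.6 at D14 against 0 in IL6-iMHs of clone-1.

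Between D3 and D14 Cdkn2a and Cdkn2b both rose, while p53 and p21 were no higher than at D3. Of the 10 genes 2 rose and 1 fell, where 5.12% of all genes rose and 5.05% fell (medians -0.04 for the 10 genes and -0.16 for all). Cdkn2b reached 71.7, 76.6 and 66.2 FPKM at D14, 19.2-fold over D3, with a log2 difference of 3.94 ± 0.076 (adjusted p = 1.44e-26). Cdkn2a reached 6.67, 6.10 and 6.62 FPKM, on 290 to 327 reads, with a log2 difference of 2.84 ± 0.084 (adjusted p = 5.60e-22). All D14 libraries lay above all D3 libraries for both genes. Cdkn1b fell to 18.5, 17.0 and 16.2 FPKM (-1.10 ± 0.066, adjusted p = 9.56e-15), and this call was lost with upper-quartile scaling (-0.95). Cdkn1a was at 148 to 155 FPKM (-0.61), Trp53 at 71.0 to 75.0 (-0.45), Mdm2 at 61.7 to 63.5 (-0.52) and Ccng1 at 226 to 254 (0.65), all under the 2-fold limit. Rises made up 50.3% of all calls, and 63.1% with upper-quartile scaling.

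The next comparisons asked whether the brakes stayed on in passaged cells. The proliferation marker gene Mki67 was at 0.668 to 1.11 FPKM in mouse-1 at P10, 7.54 to 9.41 in mouse-2 at P10 and 6.98 to 8.21 at D14. At P10 both lines had less p21, p15 and cyclin G1 message than D14 cells. The 3 comparisons with D14 share the D14 libraries and are therefore set side by side. In mouse-1 5 of the 10 genes were lower and 0 higher (11.1% and 5.17% of all genes). In mouse-2 4 were lower and 1 higher (8.46% and 4.88%). In clone-1 at P20 2 were lower and 4 higher (10.7% and 14.7%). Medians of the 10 genes were -0.99, -0.90 and 0.00, against -0.27, -0.20 and 0.02 for all genes. Rises made up 31.8%, 36.6% and 57.7% of all calls, and 45.8%, 48.5% and 44.5% with upper-quartile scaling.

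Cdkn1a was at 57.0, 67.1 and 67.9 FPKM in mouse-1 at P10 (-1.24 ± 0.072, adjusted p = 2.45e-15) and at 49.9, 49.3 and 46.6 FPKM in mouse-2 (-1.63 ± 0.072, adjusted p = 4.00e-18). Clone-1 cells had 166, 165 and 175 FPKM, near the D14 level (0.15 ± 0.072, adjusted p = 0.0588). Every P10 and P20 library still lay above all hepatocyte libraries. Cdkn2b, the sharpest mover, was at 13.5 to 15.4 FPKM in mouse-1 (-2.25 ± 0.076, adjusted p = 4.19e-21) and 10.5 to 11.6 FPKM in mouse-2 (-2.61 ± 0.076, adjusted p = 1.25e-22). In clone-1 it was at 0.590, 0.622 and 0.413 FPKM, on 35 to 62 reads, 132-fold under D14 in mean FPKM (-5.56 ± 0.076, adjusted p = 1.64e-30). Cdkn2a fell in clone-1 to 2.24, 2.35 and 2.44 FPKM (-1.16 ± 0.084, adjusted p = 3.25e-13). It stood at 4.74 to 5.95 FPKM in mouse-1 (-0.23) and 2.86 to 3.58 in mouse-2 (-0.82), within the 2-fold limit.

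Of the p53 axis, Ccng1 was at 70.5 to 80.6 FPKM in mouse-1 (-1.68, adjusted p = 3.76e-16) and 61.4 to 66.6 in mouse-2 (-1.89, adjusted p = 2.28e-17). Trp53 was lower in mouse-1, at 26.2 to 28.3 FPKM (-1.39, adjusted p = 1.93e-15), and stood at 43.3 to 45.4 FPKM in mouse-2 (-0.70). Mdm2 was lower in mouse-2, at 18.5 to 18.6 FPKM (-1.70, adjusted p = 4.94e-20), and stood at 30.5 to 35.2 FPKM in mouse-1 (-0.91). In clone-1 all 3 were within the 2-fold limit, at 59.6 to 70.7, 52.9 to 59.5 and 189.9 to 209 FPKM for Trp53, Mdm2 and Ccng1. Whether mouse-1 and mouse-2 differed from each other was not tested.

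The 4 genes higher in clone-1 than at D14 were all inhibitors, as were the 2 lower ones, Cdkn2a and Cdkn2b. Cdkn2d, an INK4 protein whose level peaks in S phase, was at 22.0, 22.5 and 25.1 FPKM against 1.76, 1.67 and 1.51 (3.19 ± 0.135, adjusted p = 9.13e-19). Cdkn2c was at 18.9 to 20.2 FPKM against 4.56 to 5.22 (1.81, adjusted p = 3.73e-16). Cdkn1c was at 4.80, 6.05 and 5.15 FPKM against 0.969, 1.401 and 1.67 (1.44, adjusted p = 1.19e-14), and Cdkn1b at 38.3 to 41.8 FPKM (1.19, adjusted p = 6.30e-16), a call lost with upper-quartile scaling (0.98). Cdkn1c reached 1 FPKM in 8 of the 33 libraries only, all of D14 or clone-1, and so entered the test through the groups where it was high. In mouse-1 at P10 it was lower than at D14 (-1.06), on values of 0.0600 to 0.186 FPKM, and that call was lost with quantile normalization (-0.62), upper-quartile scaling (-0.98) and without D14 library 3 (-0.96). Cdkn2d was higher in mouse-2 at P10 (4.02 to 4.95 FPKM, 1.08, adjusted p = 4.22e-08). Also in mouse-2, Cdkn1b was at 34.4, 35.9 and 33.8 FPKM, 2.01-fold over D14 in mean FPKM but just under the limit on the log2 scale (0.97). It was called higher with quantile normalization (1.36), upper-quartile scaling (1.17), a pseudocount of 0.1 (1.01) and without D14 library 1 (1.02). Cdkn1c in mouse-2, at 0.149 to 0.224 FPKM (-0.98), was called lower with a pseudocount of 0.1 (-2.36), without D14 library 1 (-1.11) and without mouse-2 library 1 (-1.01). Summed FPKM of 16 proliferation genes was 111 to 128 at D14, 82.6 to 96.4 and 143 to 162 at P10 and 1104 to 1128 in clone-1, where 16 of 16 rose; its part in these differences was not tested.

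From P10 to P35 in mouse-1, the one pair of passages of the same line, Cdkn2c, Cdkn2d and p53 rose, and Cdkn2a and Cdkn2b were within the 2-fold limit. The P10 baseline had the lowest Mki67 of the IL6-iHPC groups, 0.668 to 1.11 FPKM against 19.1 to 22.5 at P35. Of the 10 genes 5 rose and 0 fell, where 24.8% of all genes rose and 8.94% fell (medians 0.91 and 0.36). All 3 P35 libraries were above all 3 P10 libraries for 10 of 10 genes, which also held for 58.2% of all genes. Rises made up 73.5% of all calls, 48.5% with upper-quartile scaling and 51.4% with quantile normalization.

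Trp53 rose from 26.2, 28.3 and 27.1 to 118, 117 and 115 FPKM, 4.30-fold in mean FPKM (2.06 ± 0.080, limma, adjusted p = 6.80e-20), and P35 held the highest Trp53 level of all 11 groups. Cdkn2d rose from 4.70, 2.25 and 2.52 to 24.2, 25.8 and 23.6 FPKM (2.66 ± 0.135, adjusted p = 4.34e-17). Cdkn2c rose from 7.14, 4.73 and 4.995 to 26.8, 26.2 and 26.6 FPKM (2.08 ± 0.099, adjusted p = 9.48e-18). P10 library 1 stood above the other two P10 libraries for both INK4 genes. Cdkn1b rose from 20.3 to 25.3 up to 51.8 to 53.5 FPKM (1.16, adjusted p = 6.44e-16) and Ccng1 from 70.5 to 80.6 up to 164 to 171 FPKM (1.16, adjusted p = 9.12e-13). Both of these calls were lost with upper-quartile scaling (0.69 and 0.67) and with quantile normalization (0.79 and 0.76).

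The other 5 genes were under the 2-fold limit. Cdkn2a was at 6.27, 6.82 and 6.92 FPKM at P35 against 5.95, 5.50 and 4.74 at P10 (0.26), and Cdkn2b at 17.99, 16.9 and 18.1 against 15.4, 13.8 and 13.5 (0.30). Mdm2 was at 40.4 to 42.5 against 30.5 to 35.2 (0.33), and these 3 differences were at or under that of the median gene. Cdkn1a was at 98.9 to 100.6 against 57.0 to 67.9 (0.63). Cdkn1c was at 0.673 to 0.970 against 0.0600 to 0.186 FPKM (0.67), a 6.69-fold rise in mean FPKM that was called with a pseudocount of 0.1 (2.05, limma, adjusted p = 2.15e-10).

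Beside these rises, 16 of 16 proliferation genes rose with a median of 4.22, and their summed FPKM went from 82.6 to 96.4 up to 1343 to 1377. Of 22 partners of CDKs and of the retinoblastoma protein 14 rose and 0 fell, led by the mitotic and S-phase cyclins Ccnb1 (0.289 to 89.0 FPKM) and Ccna2 (0.556 to 69.9 FPKM). Of 31 p53 target genes 12 rose and 5 fell (median 0.74), beside 24.8% and 8.94% of all genes. The largest rises were in Gtse1 (3.23), a G2/M protein, and the apoptosis effector Bax (2.37), and the largest falls in the stress-response genes Gadd45a (-2.80) and Plk3 (-2.22). Among 20 regulators of the INK4 locus and of p27 turnover 6 rose and 1 fell, near the same shares of all genes (24.8% and 8.94%). Among those that rose were Id1, an inhibitor of helix-loop-helix factors, at 4.34 and Cks1b, a cofactor of p27 degradation, at 3.09. The leukocyte list summed to 86.3 to 92.3 FPKM at P35 against 0.123 to 0.188 at P10, carried by S100a8 (84.0 FPKM) and S100a9 (5.78 FPKM), while Cd3e, Cd3g, Cd79b and Nkg7 were at 0 and Kupffer markers summed to 0.00805 at most.

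**Figure D2:**
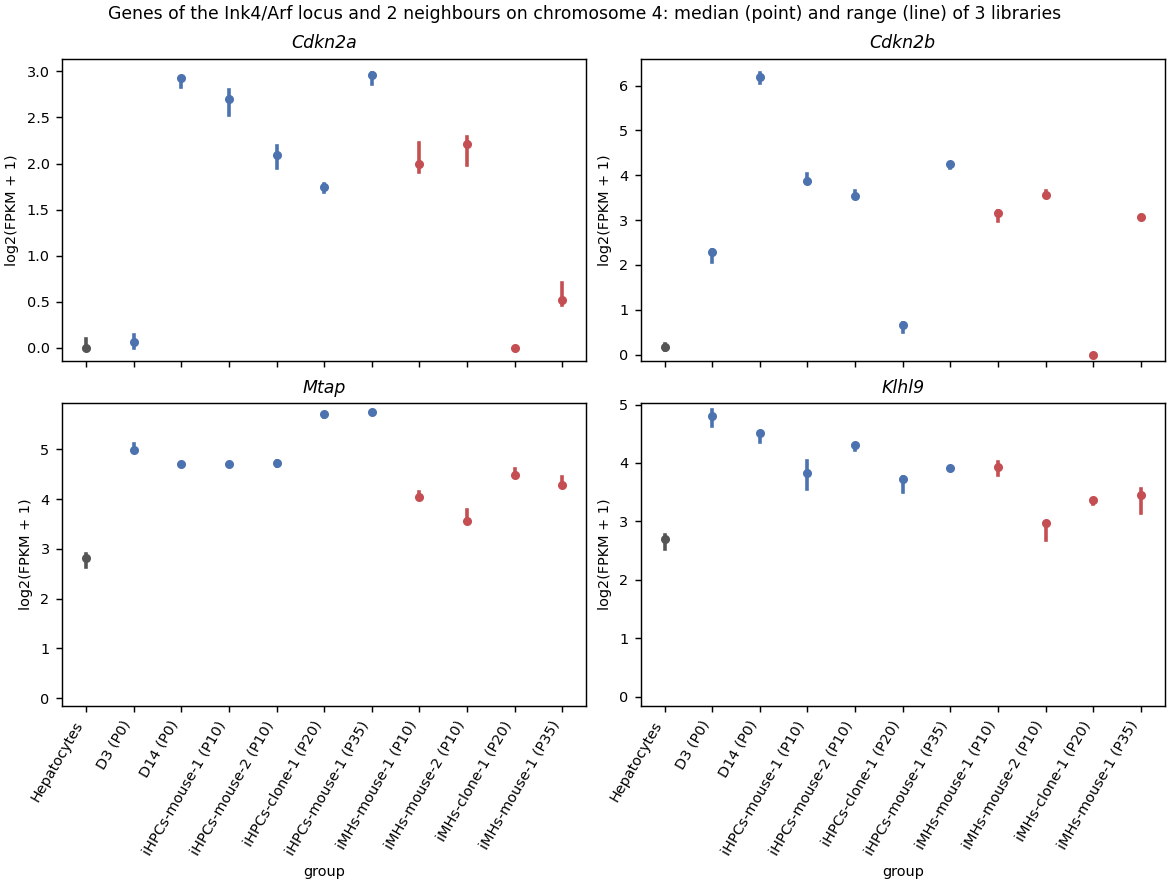
Levels on the log2(FPKM + 1) scale (y axis) of Cdkn2a, Cdkn2b and their chromosome 4 neighbours Mtap and Klhl9 (1 panel each) in the 11 cell groups (x axis), with a point at the median and a line over the range of 3 libraries. Cdkn2b falls from 66.2 to 76.6 at D14 to 10.5 to 18.1 in mouse-1 and mouse-2 IL6-iHPCs, and to 0 in matured clone-1 cells, where Mtap is at 20.7 to 23.4 FPKM.

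Matured cells were compared with the IL6-iHPCs of the same line label, and for clone-1 the 2 groups did not match in Y-linked reads. In all 4 cultures Mdm2 and Ccng1 fell, and in none was Cdkn1a called lower. In mouse-1 at P10 1 of the 10 genes rose and 2 fell (9.59% and 15.4% of all genes). In mouse-2 at P10 2 rose and 3 fell (11.2% and 28.6%). In the libraries labelled clone-1 0 rose and 6 fell (5.86% and 17.7%). In mouse-1 at P35 0 rose and 6 fell (10.2% and 35.1%). Medians of the 10 genes were -0.01, 0.04, -1.31 and -1.30, against -0.17, -0.35, -0.38 and -0.59 for all genes, in the same order. Rises made up 38.4%, 28.2%, 24.8% and 22.5% of all calls, and 49.7%, 48.5%, 50.9% and 48.0% with quantile normalization.

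Ccng1 fell to 25.6 to 34.4 FPKM in mouse-1 at P10 (-1.31 ± 0.090, adjusted p = 9.83e-14), 13.0 to 15.9 in mouse-2 (-2.09 ± 0.090, adjusted p = 9.17e-19), 15.01 to 17.0 in clone-1 (-3.57 ± 0.090, adjusted p = 3.56e-24) and 14.2 to 18.9 at P35 (-3.25 ± 0.090, adjusted p = 1.11e-23). Mdm2 fell to 9.38 to 10.7 (-1.62), 6.28 to 7.28 (-1.31), 14.4 to 14.5 (-1.88) and 13.6 to 14.6 FPKM (-1.498), with adjusted p between 2.94e-21 and 1.00e-17. The Mdm2 calls in mouse-2 and at P35 were lost with quantile normalization (-0.89 and -0.97), and the latter with upper-quartile scaling too (-0.98). Trp53 fell at P35 to 13.7, 15.5 and 15.6 FPKM (-2.89 ± 0.080, adjusted p = 1.11e-23), in clone-1 to 23.5 to 25.5 FPKM (-1.36) and in mouse-2 to 18.3 to 22.3 FPKM (-1.10). The last 2 of these were lost with upper-quartile scaling (-0.93 and -0.90). In mouse-1 at P10 it was at 16.1 to 17.5 FPKM (-0.65).

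Cdkn1a, a p53 target like Mdm2 and Ccng1, was called higher in 1 culture. It was at 126, 123 and 134 FPKM in matured mouse-1 cells of P10 (0.99 ± 0.072, just under the 2-fold limit), at 114, 98.7 and 104 in those of mouse-2 (1.10 ± 0.072, adjusted p = 1.49e-14), at 134 to 137 in clone-1 (-0.31) and at 152, 149 and 159 at P35 (0.62). The mouse-2 call was lost with quantile normalization (0.71). The mouse-1 value at P10 passed the limit with upper-quartile scaling (1.10), with a pseudocount of 0.1 (1.001) and without IL6-iHPC library 2 or 3 or IL6-iMH library 2 (1.02 to 1.04), and the P35 value passed the limit with upper-quartile scaling (1.15).

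For the INK4 genes, Cdkn2d rose on maturation in mouse-1 at P10, to 12.8, 10.3 and 12.8 FPKM (1.68 ± 0.135, adjusted p = 2.89e-12), and in mouse-2, to 11.5, 11.8 and 12.5 FPKM (1.21 ± 0.135, adjusted p = 2.11e-09). In clone-1 it fell, to 6.89 to 7.82 FPKM (-1.52, adjusted p = 2.60e-11), and at P35 it was at 14.0 to 15.2 FPKM (-0.72). Differences between lines were not tested. Cdkn2c fell in clone-1 to 6.73 to 8.65 FPKM (-1.26) and at P35 to 8.97 to 9.48 FPKM (-1.44). Both Cdkn2c calls were lost with each of the other scalings, the values lying between -0.93 and -0.82. Cdkn2c and Cdkn2d thus ended in narrow ranges, 6.73 to 11.6 and 6.89 to 15.2 FPKM over the 12 matured libraries, from 4.73 to 26.8 and 2.25 to 25.8 FPKM before.

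Cdkn2a fell at P35 to 0.429, 0.379 and 0.631 FPKM, 13.9-fold in mean FPKM (-2.38 ± 0.084, adjusted p = 4.95e-21), on 20 to 35 reads against 361 to 412 before maturation. In mouse-1 at P10 it was at 2.74 to 3.68 FPKM (-0.63) and in mouse-2 at 2.95 to 3.87 FPKM (0.08). Cdkn2b fell at P35 to 7.32 to 7.51 FPKM (-1.15 ± 0.076, adjusted p = 1.34e-14), a call lost with both other scalings (-0.65 and -0.46). It was at 6.86 to 8.17 FPKM in mouse-1 at P10 (-0.82) and at 10.4 to 11.5 FPKM in mouse-2 (0.00). In the matured clone-1 libraries both genes had 0 reads in 3 of 3 libraries. Against a floor of 3 reads per library, 0.0557 FPKM for Cdkn2a and 0.0356 FPKM for Cdkn2b on average, their levels were at least 42.1-fold and at least 15.2-fold lower than in clone-1 IL6-iHPCs. Neighbours on chromosome 4, chosen after these values were seen, did have reads there: Mtap at 3102 to 3601 reads and Klhl9 at 2113 to 2617, while Dmrta1 had 0 reads there and 0 to 5 before maturation. The Y-linked reads that differ between the 2 clone-1 groups stand beside this, and the cause was not tested.

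Whether maturation acted differently at P35 and P10 in mouse-1 was tested directly, as the difference of the 2 maturation changes. Of the 10 genes 0 were higher and 5 lower, where 9.65% and 24.1% of all genes were (medians -1.37 and -0.36). The differences were -2.41 ± 0.191 for Cdkn2d, -2.26 ± 0.139 for Cdkn2c, -2.24 ± 0.113 for Trp53, -1.94 ± 0.127 for Ccng1 and -1.75 ± 0.119 for Cdkn2a, with limma's adjusted p between 9.73e-17 and 2.74e-12. For Cdkn1b (-0.99), Cdkn1c (-0.91, and -2.60 and called with a pseudocount of 0.1), Cdkn1a (-0.37), Cdkn2b (-0.33) and Mdm2 (0.13) they were within the 2-fold limit. This comparison shares its IL6-iHPC libraries with that of P35 and P10. The proliferation genes moved with it, 16 of 16 lower with a median of -4.52, and 28.6% of all calls were higher, against 50.6% with upper-quartile scaling and 49.8% with quantile normalization.

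**Figure D3:**
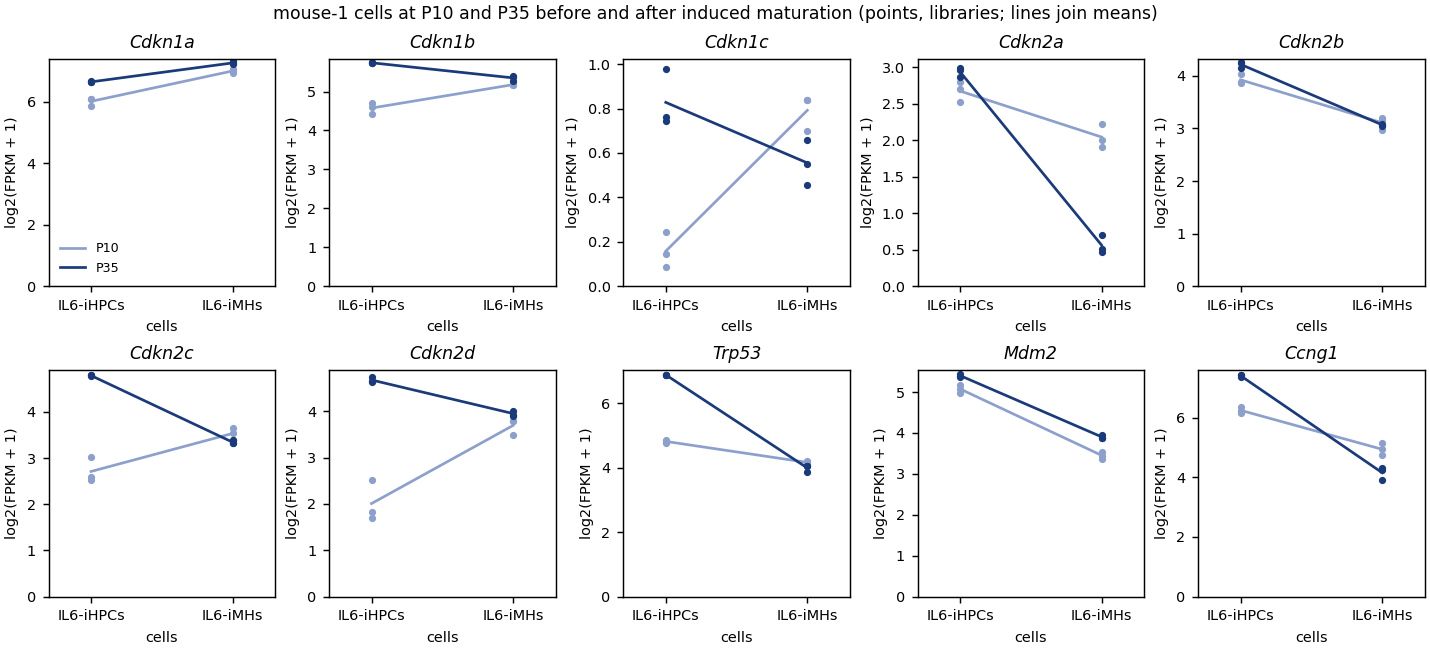
Levels on the log2(FPKM + 1) scale (y axis) of the 10 genes in IL6-iHPCs and IL6-iMHs of mouse-1 (x axis), light blue for P10 and dark blue for P35, with 1 point per library and lines joining group means. Matured cells hold 16.1 to 17.5 FPKM of Trp53 at P10 and 13.7 to 15.6 at P35, while IL6-iHPCs hold 26.2 to 28.3 and 115 to 118.

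Matured cells were then set against fresh hepatocytes, with the 4 matured cultures averaged, so that mouse-1 counts 2 times. Hepatocytes had 994 to 1550 Y-linked reads and all matured libraries 0, so that culture and animal cannot be told apart here. The summed FPKM of hepatocyte markers was close to that of hepatocytes, but Alb was much of it (47356 to 53749 FPKM in hepatocytes, 49049 to 63707 in IL6-iMHs). Of biliary markers, Krt19 was at 40.4 to 123 FPKM in IL6-iMHs against 0 to 0.0512 in hepatocytes, and Krt7 at 2.16 to 19.0 against 0. Ranges of Sox9 and Epcam overlapped. Of the 10 genes 9 were higher in IL6-iMHs and 0 lower, where 24.8% of all genes were higher and 7.79% lower (medians 1.62 and 0.46). Rises made up 76.1% of all calls, 59.8% with upper-quartile scaling and 54.0% with quantile normalization. Cdkn1a stood 32.8-fold over hepatocytes in mean FPKM (4.72 ± 0.057, adjusted p = 5.24e-33), with 98.7 to 159 FPKM over the 12 matured libraries and 3.23 to 4.39 in hepatocytes. Cdkn1b (2.29), Cdkn2d (1.87), Cdkn2c (1.81), Mdm2 (1.43), Ccng1 (1.22) and Trp53 (1.06) were higher as well, with no matured library inside the hepatocyte range. Cdkn2b (2.27) and Cdkn2a (1.16) were higher on average, although the clone-1 libraries were at 0. Without clone-1, an alternative chosen after the data were seen, Cdkn2b stood at 3.08 and the Trp53 call was lost (0.94). The Trp53 and Ccng1 calls were also lost with upper-quartile scaling (0.64 and 0.81) and, together with that of Mdm2, with quantile normalization (0.47, 0.59 and 0.70), and that of Trp53 without hepatocyte library 3 (0.96). Cdkn1c was at 0.370 to 3.23 FPKM in matured cells and 0.476 to 0.700 in hepatocytes (0.34).

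**Figure D4:**
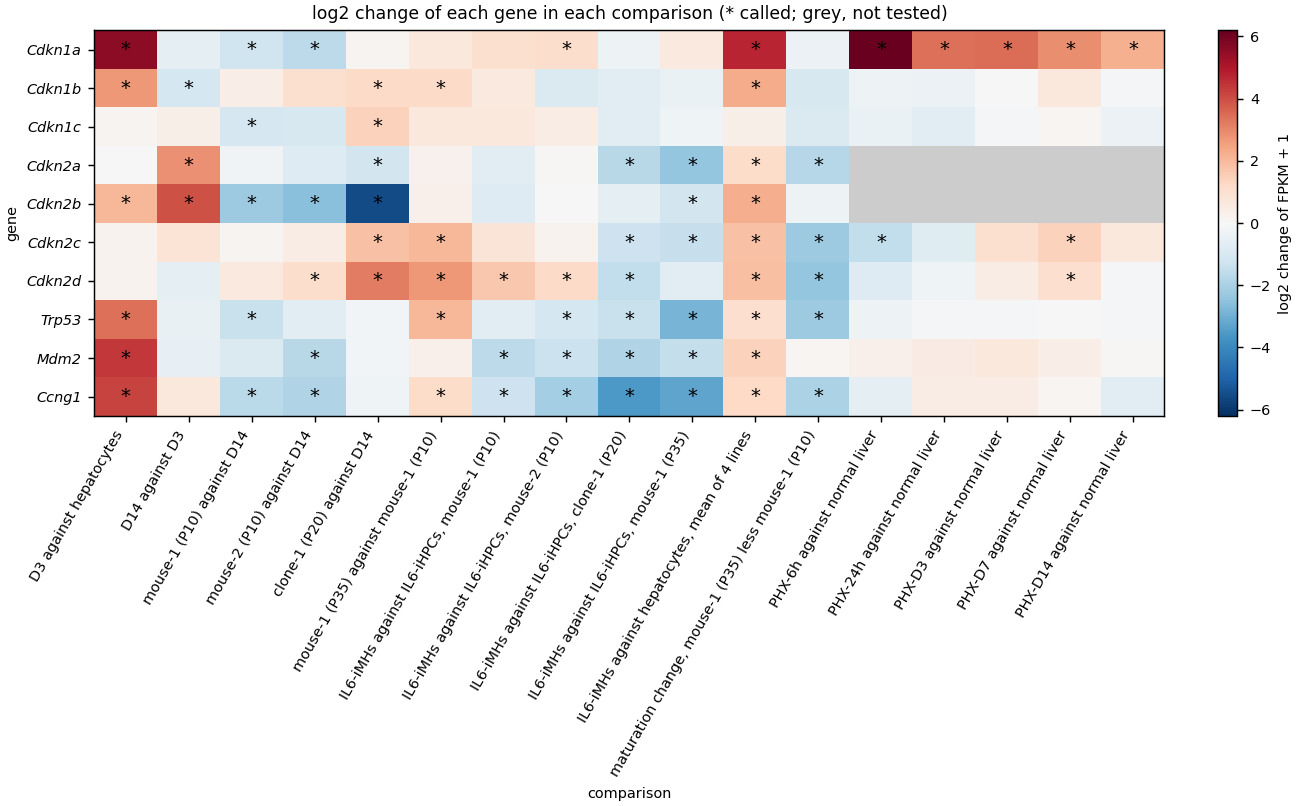
Differences on the log2(FPKM + 1) scale (colour) for the 10 genes (rows) in each comparison (columns), with called changes marked by a star and genes not tested in grey. The largest rises are those of Cdkn1a from hepatocytes to D3 (5.56) and 6 h after PHX (6.12), and the largest fall that of Cdkn2b from D14 to clone-1 (-5.56).

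Ranked over the 11 cell groups, the genes fell into different orders. Trp53 was highest at P35 and lowest in hepatocytes, no 2 neighbouring groups in the order overlapped, and all 4 matured groups stood under all IL6-iHPC groups. Mdm2 ran from 90.0 FPKM on average at D3 to 3.41 in hepatocytes, with 1 overlap among the 10 neighbouring pairs, between matured clone-1 and matured P35 cells. Ccng1 was highest at D14 (241) with 2 overlaps, among matured P35, clone-1 and mouse-2 cells. Cdkn1a was highest at D3, with 2 overlaps, matured P35 with D14 cells and matured mouse-2 with P35 cells. Cdkn2b had 2 overlaps as well, between groups at 7.40 and 7.65 and at 10.9 FPKM. Cdkn1b, Cdkn2a, Cdkn2c and Cdkn2d had 5 overlapping pairs each and Cdkn1c 6, so that the middle of those orders is not resolved by 3 libraries a group. Overlaps of neighbouring groups were not counted over all genes. The libraries of a group were described as technical repeats, and 58.2% of all genes had P35 wholly above P10 in mouse-1. Few overlaps therefore do not mark out a gene.

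Over the 11 group means, and as a description only since groups share lines and media, the genes tested whose log2 levels ran most like Cdkn1a were Maff (Pearson r = 0.974) and Nedd9 (0.952). For Cdkn1b they were Cmtm4 (0.960) and Slc6a6 (0.932), for Cdkn1c Sema6a (0.960) and Rhou (0.950), for Cdkn2a Zfp523 (0.890) and Borcs7 (0.881), and for Cdkn2b Pomgnt1 (0.892) and Tesk1 (0.869). For Cdkn2c they were Plek2 (0.968) and Wdr34 (0.963), for Cdkn2d Eef1b2 (0.976) and Rpl14 (0.969), and for Trp53 Ptbp1 (0.990) and Uba1 (0.985). For Mdm2 they were Zmat3, itself a p53 target (0.986), and Apbb2 (0.984), and for Ccng1 Ankrd13c (0.979) and Ick (0.974). Among the 10 genes Mdm2 ran most like Ccng1 (0.937).

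Other genes of the p53 pathway were counted in the same comparisons. Of 31 p53 target genes tested, 23 rose and 1 fell from hepatocytes to D3 (median 2.57), where 53.9% of all genes rose and 12.1% fell, led by Trp53inp1 (6.94), a p53 cofactor of the stress response, and Phlda3 (6.16), a repressor of Akt signalling, with Dcxr, a metabolic enzyme, falling by 4.06. From D14 to P10 18 fell and 3 rose in mouse-1 and 17 fell and 1 rose in mouse-2, with the microtubule protein gene Psrc1 (-4.33 and -4.09) and the sulfatase gene Sulf2 (-3.34 and -4.61) lowest and Ddit4, an mTOR inhibitor, highest in both (1.91 and 1.63). Of all genes 11.1% and 8.46% fell there and 5.17% and 4.88% rose. On maturation 9, 10, 16 and 15 fell and 3, 4, 0 and 3 rose in mouse-1 at P10, mouse-2, clone-1 and P35. The shares of all genes that fell were 15.4%, 28.6%, 17.7% and 35.1%, so that the 10 of 31 in mouse-2 lie near the background. Of 14 regulators of p53 13 rose at D3, led by the kinase gene Hipk2 (4.63) and the acetyltransferase gene Ep300 (4.02), and 12 fell on maturation at P35 (35.1% of all genes), led by the checkpoint kinase genes Chek2 (-2.82) and Chek1 (-2.41). Of 14 senescence-associated genes 8 rose and 0 fell from P10 to P35 (24.8% and 8.94% of all genes). The largest rises were those of Lmnb1 (4.14), a lamin known to be lost in senescence, and Hmga2 (3.51), a chromatin protein of growing cells. From hepatocytes to D3 10 of the 14 rose and 0 fell, against the same 53.9% and 12.1% of all genes, led by the chemokine gene Ccl2 (7.06) and Igfbp3 (5.85), which binds insulin-like growth factors. From D3 to D14 3 rose, among them Igfbp3 (1.94) and Igfbp7 (1.77), and 3 fell, among them Gdf15 (-1.96), a stress-induced cytokine. Maturation at P35 lowered 9 and raised 2, with Igfbp3 lowest (-5.45) and Gdf15 (1.51) among those that rose.

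The partners of the inhibitors were counted in the same way, and the shares of all genes at D3, on maturation at P35 and from D14 to clone-1 are those given above (53.9% higher, 35.1% lower and 14.7% higher). Of 22 genes for CDKs, cyclins and partners of the retinoblastoma protein 17 rose and 1 fell at D3, led by Cdk6 (3.68) and Ccnd2 (3.55), a kinase and a cyclin that INK4 proteins act on, and between D3 and D14 1 rose, cyclin D1 (Ccnd1, 2.24). At P35 maturation lowered 17 of the 22, and in clone-1 at P20 10 stood over D14 and 1 under. Of the 20 regulators of the INK4 locus and of p27 turnover 17 rose and 0 fell at D3, led by Ets1 (3.71), an activator of p16Ink4a, and Foxo1 (3.60), an activator of p27. From D3 to D14 3 fell and 0 rose (5.05% and 5.12% of all genes). Among them were Cbx7 (-1.19), a Polycomb protein that represses the locus, and Foxo1 (-1.18). Their part in the rise of Cdkn2a and Cdkn2b was not tested. At P35 maturation lowered 11, led by the Polycomb methyltransferase gene Ezh2 (-3.21) and Cks1b (-2.98).

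In liver the question was how the same brakes behaved while the organ regrew. Cdkn1a rose at every time after PHX, most at 6 h and with a call at D14 that did not hold without any 1 library, while Trp53, Mdm2 and Ccng1 passed the limits at no time. In bulk tissue fewer cells of a type and less RNA per cell cannot be told apart. Of the 10 genes 8 were tested, as Cdkn2a and Cdkn2b stayed under the 1 FPKM filter in all but 1 library. At 6 h 1 rose and 1 fell (4.78% and 11.5% of 11114 genes), at 24 h 1 and 0 (3.74% and 4.16%), at D3 1 and 0 (3.33% and 2.49%), at D7 3 and 0 (7.81% and 1.03%) and at D14 1 and 0 (0.981% and 2%). Medians of the 8 genes were -0.37, -0.19, 0.44, 0.53 and -0.10, against -0.28, -0.02, 0.01, 0.13 and -0.08 for all genes. Rises made up 29.3% of all calls at 6 h, 88.4% at D7 and 32.9% at D14, and 52.9%, 72.4% and 47.6% with quantile normalization.

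Cdkn1a was at 2.34, 0.827 and 1.64 FPKM in normal liver and at 176, 153 and 199.5 FPKM at 6 h (6.12 ± 0.679, limma, adjusted p = 6.87e-06). At 24 h it was at 5.90, 70.9 and 37.3 FPKM (3.40, adjusted p = 0.00173), at D3 at 18.6, 81.3 and 13.0 (3.48, adjusted p = 0.00211), at D7 at 22.0, 16.2 and 15.2 (2.88, adjusted p = 0.00473) and at D14 at 8.67, 11.6 and 11.4 FPKM (2.19, adjusted p = 0.0378). All libraries after PHX lay above all normal ones. At 24 h the value was 4.38 without library 1 and 2.69 without library 2, and at D3 2.71 without library 2. The D14 call was lost without any 1 of the 6 libraries (adjusted p between 0.0569 and 0.146), with quantile normalization and with no filter.

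Those libraries stood apart in other genes too. Library 1 of 24 h had the lowest Cdkn1a of its group and the highest proliferation sum, 134 against 41.5 and 54.9 FPKM, and 4.56 FPKM of Cdkn2c against 1.43 and 1.95. Library 2 of D3 had the highest Cdkn1a and the lowest proliferation sum, 93.4 against 125 and 228 FPKM, with 4.18 FPKM of Cdkn2c against 14.3 and 18.3, and 1.22 FPKM of Cdkn2b against 0.0288 and 0.0273. It was also the highest in Kupffer (610 FPKM against 328 and 215), stellate (233 against 78.4 and 92.4) and biliary marker sums (170 against 51.1 and 32.0). The part of these in the result was not tested.

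Cdkn2c fell at 6 h from 4.91, 5.18 and 4.04 to 0.706, 1.47 and 0.829 FPKM (-1.53 ± 0.379, adjusted p = 0.00355). It was over normal at D7, at 16.6, 12.9 and 13.9 FPKM (1.44, adjusted p = 0.00977). At 24 h it was not called (-0.74), but was without library 1 (-1.09, adjusted p = 0.0411), and at D3 not (1.02), but without library 2 (1.59, adjusted p = 0.000822). Cdkn2d went from 2.16 to 2.44 FPKM in normal liver to 0.660 to 1.28 at 6 h (-0.80) and 4.85 to 6.87 at D7 (1.04 ± 0.217, adjusted p = 0.00209). The D7 call was lost with both other scalings (0.86 and 0.80) and without D7 library 1 (0.93). The proliferation sum was 58.9 to 61.7 FPKM in normal liver, 30.6 to 34.3 at 6 h, 41.5 to 134 at 24 h, 93.4 to 228 at D3, 104 to 126 at D7 and 47.3 to 65.3 at D14. Its highest value was at D3, while Cdkn2c was 12.2 FPKM on average at D3 and 14.5 at D7, and the ranges of D3 and D7 overlapped for both. At D14 Cdkn2c was at 6.70 to 9.36 FPKM and Cdkn2d at 1.62 to 2.41, with a proliferation sum near that of normal liver. The part of proliferation in these differences was not tested. Also at D7, Kupffer markers summed to 1391 to 2030.4 FPKM against 251 to 387 in normal liver and leukocyte markers to 81.0 to 135 against 4.44 to 11.4, and their part was not tested. Cdkn2a had 35 to 53 reads at D7 (0.599 to 0.821 FPKM) and 0 to 5 reads in normal liver, with no test.

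No gene of the p53 axis passed both limits. Trp53 was at 9.001 to 14.2 FPKM in normal liver and 8.17 to 13.0 after PHX, with differences from -0.32 to 0.03. Mdm2 was at 5.09 to 6.94 and 5.69 to 11.4 FPKM, with its largest difference at D3 (0.67 ± 0.149, adjusted p = 0.00469, under the 2-fold limit). Ccng1 was at 16.0 to 21.0 FPKM in normal liver, 10.6 to 14.99 at 6 h (-0.55), 26.2 to 27.8 at 24 h (0.48) and 10.1 to 13.0 at D14 (-0.70). Cdkn1b was highest at D7, at 9.63 to 11.5 against 5.68 to 7.39 FPKM (0.63 ± 0.119, adjusted p = 0.00086), and Cdkn1c was at 0.249 to 1.81 FPKM throughout. Of 25 p53 target genes tested 4, 3, 3, 6 and 3 rose and 2, 3, 0, 0 and 1 fell, in the order of the times from 6 h to D14, where 4.78%, 3.74%, 3.33%, 7.81% and 0.981% of all genes rose. Btg2, an antiproliferative gene, gave the largest rise of the list at each time, with 4.63 at 6 h, 1.77 at 24 h, 2.38 at D3, 4.95 at D7 and 5.56 at D14. Ddit4 was next at 6 h (2.46) and D7 (4.13), and the apoptosis gene Bbc3 fell by 2.31 at 6 h and by 2.12 at 24 h. Of the 12 regulators of p53 tested 1 fell, Chek2 at 6 h (-1.05), and 0 rose at any time.

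**Figure D5:**
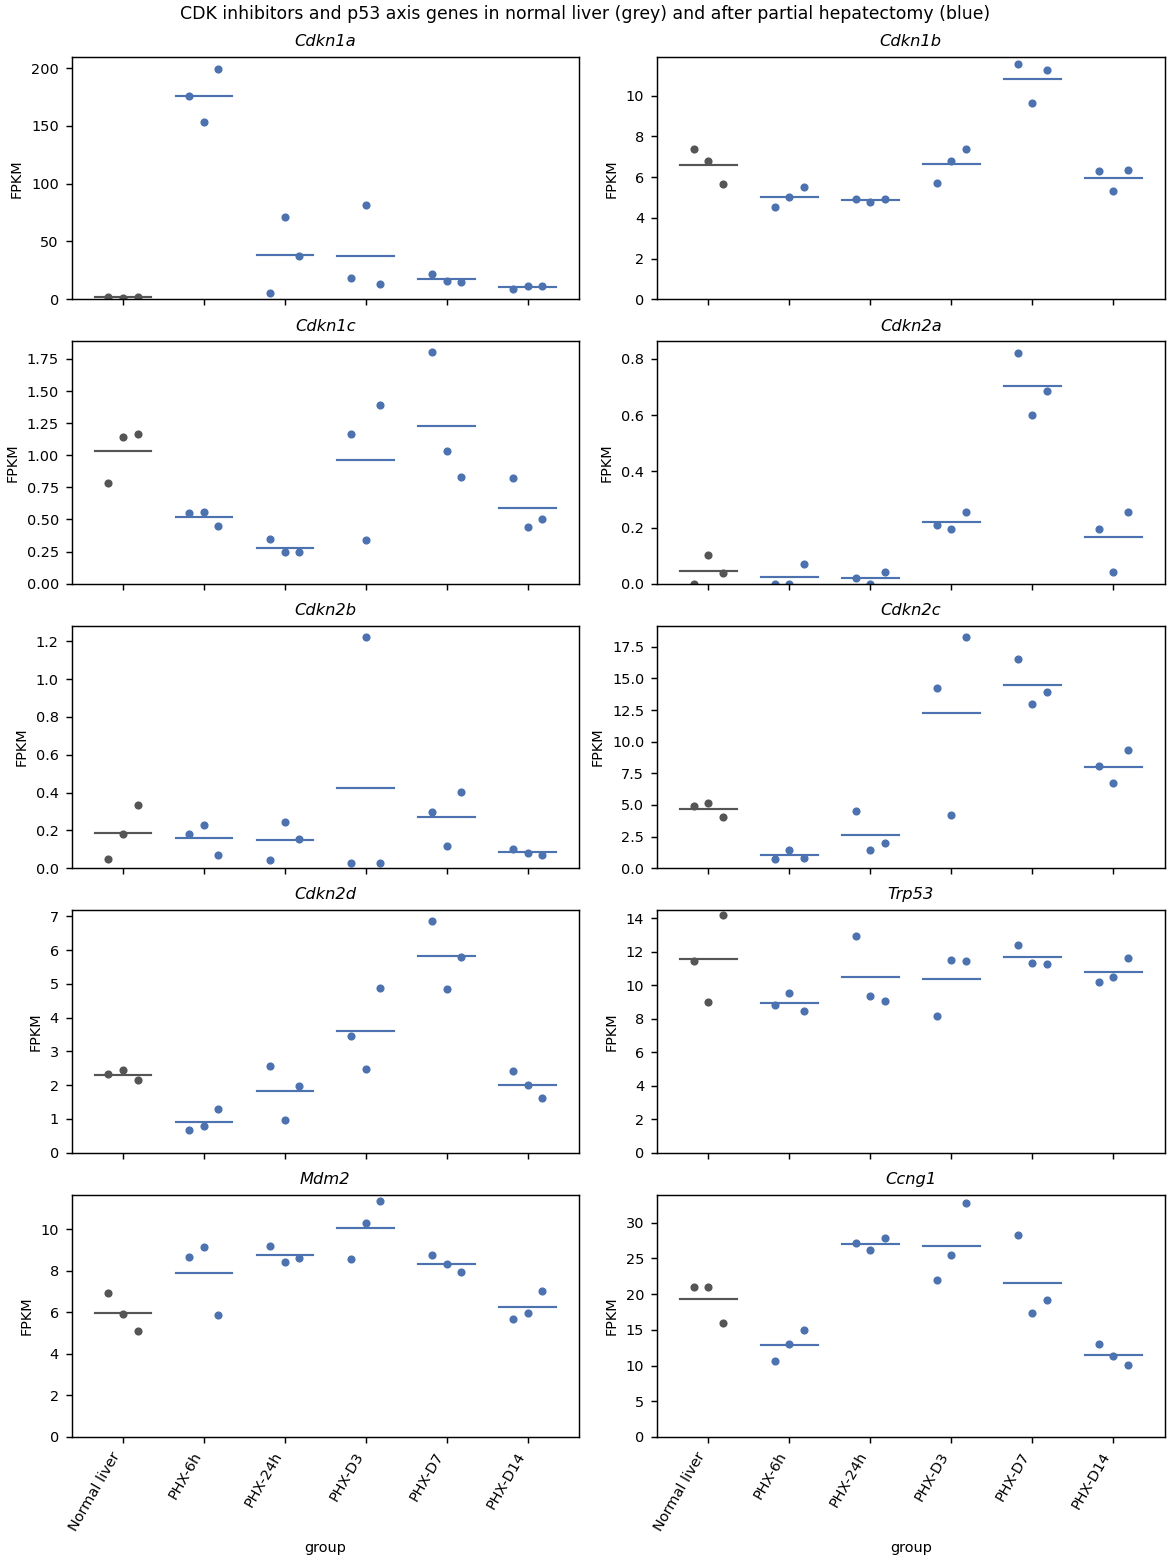
FPKM (y axis) of the 10 genes in normal liver and 5 times after PHX (x axis), with 1 point per library and a line at the mean of 3 libraries. Cdkn1a lies at 153 to 199.5 at 6 h against 0.827 to 2.34 in normal liver, and Trp53 between 8.17 and 14.2 throughout.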

How the data were processed

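RNA-seq expression tables deposited by the authors as FPKM per gene were used, 1 for the cells and 1 for the livers. The submitters' processing notes name TopHat 1.4.1, Cufflinks 1.3.0 and mm10, and the unit was inferred from this software and from the values. Replicates were not pooled. A further table of primary hepatocytes and of day 7 cells grown with or without IL6 held 481 rows and none of the 10 genes and was not used. Gene symbols stored as dates (27 for cells, 25 for livers) named no gene used here, and 2 duplicated symbols were averaged.

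The 10 genes, the gene lists and the tests were chosen with earlier results of these data known. Genes that reached 1 FPKM in 3 or more libraries of a table were tested on log2(FPKM + 1) with limma 3.58.1 (R 4.3.3), all groups of a table in 1 fit with a trended moderated variance, 2-sided, adjusted by the Benjamini-Hochberg method over all genes tested. A change was called at an adjusted p under 0.05 and a difference of at least 2-fold. FPKM steps gave whole reads, within 0.02 of a whole number, for 18830 cell and 17331 liver genes, and these served for read numbers, with a floor of 3 reads where a gene had 0; intervals and floors cover counting error only. Depth was 49.3 M to 88.9 M reads on genes per cell library and 52.1 M to 79.3 M per liver library, where a read is the smallest unit counted. Beside the 10 genes, the text names from each list those with the largest called changes in each direction, and 1 gene that met this rule is not reported here. On simulated data, 200 changed genes were planted; for D3 against hepatocytes (10918 genes) 100% were recovered at log2 changes of 1.5 and 3, and for 6 h after PHX (10667 genes) 89.4% and 96.2%. Windows before gene starts and gene positions came from RefSeq on GRCm38.p6, and motifs were searched on both strands. As alternatives, values were scaled by quantile normalization or by the upper quartile, the filter was dropped or set at 5 FPKM, and the pseudocount was lowered to 0.1. Others were a fit of only the groups compared, no variance trend, no fold limit, each library left out in turn and a replicate block. Python 3.11.15 with numpy 2.4.6, pandas 2.3.3 and matplotlib 3.10.9 was used for summaries.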

Additional observations from a re-analysis of the deposited data

Results flagged for a closer look

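For 5 of the 10 genes the change on maturation differed between P35 and P10 of mouse-1, tested as the difference of both changes on the log2(FPKM + 1) scale (limma, 3 libraries per group). Of all genes 24.1% were called lower and 9.65% higher in this difference, which shares its IL6-iHPC libraries with P35 against P10. The differences were -2.41 for Cdkn2d, -2.26 for Cdkn2c, -2.24 for Trp53, -1.94 for Ccng1 and -1.75 for Cdkn2a. Cdkn2c and Cdkn2d, the INK4 genes that stood highest in P35 IL6-iHPCs and clone-1, moved in opposite directions at the 2 passages: 0.82 and 1.68 at P10, -1.44 and -0.72 at P35, of which 1.68 and -1.44 passed the limits. Trp53 (-0.65 and -2.89), Ccng1 (-1.31 and -3.25) and Cdkn2a (-0.63 and -2.38) were lower after maturation at both passages. Levels in matured cells lay closer together than levels before: Trp53 was at 16.9 and 14.9 FPKM on average after maturation and at 27.2 and 117 before. For Cdkn2a the reverse held, with 5.40 and 6.67 FPKM before and 3.14 and 0.480 after. Passage and the proliferation genes, 16 of 16 lower in the same difference, cannot be told apart here.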

How the results depend on the processing

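Counts of the 10 genes are given here without the share of all genes at each setting, so that they do not mark out these 10. With no fold limit the number passing rose to 10 for D14 against D3 and 10 for P35 against P10. It was 9 for mouse-1 and 10 for mouse-2 at P10 against D14. On maturation it was 10, 8, 10 and 10 in mouse-1 at P10, mouse-2, clone-1 and P35, and 9 for the difference of maturation changes. In liver it was 5, 4, 2, 5 and 2 from 6 h to D14. Quantile normalization left 3 for P35 against P10, 3 for maturation of mouse-2, 3 for maturation at P35 and 0 at D14 after PHX, and turned Cdkn1c (-1.16), Cdkn2c (-1.33) and Cdkn2d (-1.32) at D3 against hepatocytes from values of 0.19, 0.23 and 0.24 that had not been called. Upper-quartile scaling left 3 for P35 against P10 and gave 2 at D3 after PHX. A pseudocount of 0.1 gave 5 for maturation of mouse-1 at P10 and 2 at 24 h, and no filter gave 0 at D14 after PHX. With each library left out in turn the count was 1 to 2 at 24 h (2 without library 1), 1 to 2 at D3 after PHX (2 without library 2) and 0 at D14 after PHX without any 1 of the 6. Causes were not tested, apart from what each setting changes by construction. Over single genes, 1088 of 1110 values with a library left out kept their call, as did 142 of 160 with upper-quartile scaling and 140 of 160 with quantile normalization. A change of sign in a value that was called under neither setting did not count as a difference here. The replicate block left all counts as they were (6 for D3 against hepatocytes, 3 for D14 against D3, 5 for P35 against P10, 9 for IL6-iMHs against hepatocytes and 2 at 6 h after PHX) and changed no other call. Libraries of the same number shared only that number, with a median correlation of their deviations of -0.0156 in cells and -0.0551 in liver. Depth limits values far under 1 FPKM, such as Cdkn1c at P10 (6 to 25 reads per library) and, in normal liver, Cdkn2a (0 to 5 reads).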

Other observations

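In P35 IL6-iHPCs the neutrophil genes S100a8 and S100a9 were at 84.0 and 5.78 FPKM on average, and the leukocyte list summed to 27.8 to 36.2 FPKM in clone-1 IL6-iHPCs and to at most 2.10 in every other culture. These were also the 2 groups with the highest proliferation sums, 1343 to 1377 and 1104 to 1128 FPKM against 82.6 to 175 in the other IL6-iHPC groups, and the highest Cdkn2c (18.9 to 26.8 FPKM) and Cdkn2d (22.0 to 25.8 FPKM). The genes whose group means ran most like Cdkn2d were Eef1b2 and Rpl14, which encode a translation factor and a ribosomal protein.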
